A study of Mus musculus with 6 samples.

Results

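Laminins and nidogens are proteins of the basement membrane, the thin sheet of matrix that underlies vessels, meninges, nerve roots and the glial surface of the spinal cord. The group described here holds 10 genes, out of 56859 genes in the count table. It was defined by name as the rows for the laminin alpha chains Lama1, Lama2, Lama4 and Lama5, the beta chains Lamb1 and Lamb2, the gamma chains Lamc1 and Lamc3, and the nidogens Nid1 and Nid2. All 10 passed the filter on low counts. The laminin chain genes Lama3 and Lamb3 are not in the group and are given beside it.

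A laminin molecule is a cross-shaped trimer of an alpha, a beta and a gamma chain. The alpha chain carries the globular domains that bind integrins and dystroglycan on the cell surface, and the short arms join laminins into a network. Nidogens are rod-shaped linkers that bind the laminin gamma1 chain and collagen IV, and so tie the laminin network to the collagen network. In the central nervous system, Lama4 and Lama5 chains are known from the vessel wall, and Lama1 and Lama2 chains from the meningeal and astrocyte basement membranes.

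Bulk RNA came from the spinal cord of wild-type (WT) mice whose cord had been bruised by a contusion at T10, with all 6 samples labelled 6 weeks and put in the same batch. In the AZ876 group (n = 3), the injured mice also received AZ876. The compound activates LXR, the liver X receptors, which are nuclear receptors that switch on cholesterol export genes. It was injected into the peritoneum at 5 mg/kg once a day for 1 week after the injury, in dimethyl sulfoxide diluted with a cyclodextrin saline. In the injury group (n = 3), mice had the same contusion, and per the labels' protocols control animals were injected with that solvent alone. No uninjured group was analysed here. The labels give neither strain, sex nor age.

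AZ876 libraries held 14067649 to 17676466 counts and injury libraries 15493073 to 20211175. Levels below are in CPM, counts scaled to a common library total. The 10 genes together took 0.0728% to 0.0901% of the counts in AZ876 libraries and 0.0458% to 0.0630% in injury libraries. The labelled tissue was borne out by its markers, since neuron, oligodendrocyte and astrocyte markers were all detected, with astrocyte markers summing to 12392 CPM in the lowest library. Among AZ876 libraries replicate 1 was the lowest for all 10 genes, and among injury libraries replicate 2 was the lowest for 8 of 10.

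At 6 weeks, 9 of the 10 genes had a positive log2 fold change of AZ876 over injury and Lama5 alone had a negative one. The median was 0.54 for the 10 genes and 0.0040 over all 17599 genes tested. The nidogens stood furthest apart: Nid2 was 2.18 times and Nid1 1.99 times as high with AZ876. Lama4, Lamb1 and Lama2 followed at 1.77, 1.65 and 1.50 times, while Lama5 (0.990 times) and Lamc3 (1.03 times) were close to equal in their group means.

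No gene of the group passed the test. Using the quasi-likelihood test of edgeR, with Benjamini-Hochberg adjustment across the whole table, 0 of the 10 were called at an adjusted p under 0.05, as were 0% of all genes tested, and their smallest adjusted p was 0.330. Without the adjustment, 7 of 10 were higher in edgeR at p under 0.05 and 0 were lower, against 7.98% of all genes higher and 6.74% lower. This count was 3 without AZ876 replicate 2, when Lama2, Nid1 and Nid2 were left, and the count over all genes in either direction was then 986 of 18178, against 2592 of 17599 with all libraries. The 3 AZ876 libraries were all above the 3 injury libraries for 6 of 10 genes (Lama2, Lama4, Lamb1, Lamc1, Nid1 and Nid2), against 10.2% of all genes, and all below them for 0 of 10, against 8.64%. DESeq2, run as an alternative, called 2 of 10 higher (Lama2 and Nid2, adjusted p of 0.0160 and 0.0402), against 0.797% of all genes. It called 0 lower, against 0.347%, and limma-voom called 0 in either direction. In bulk tissue, more cells of a type and more RNA per cell cannot be told apart.

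**Figure D1:**
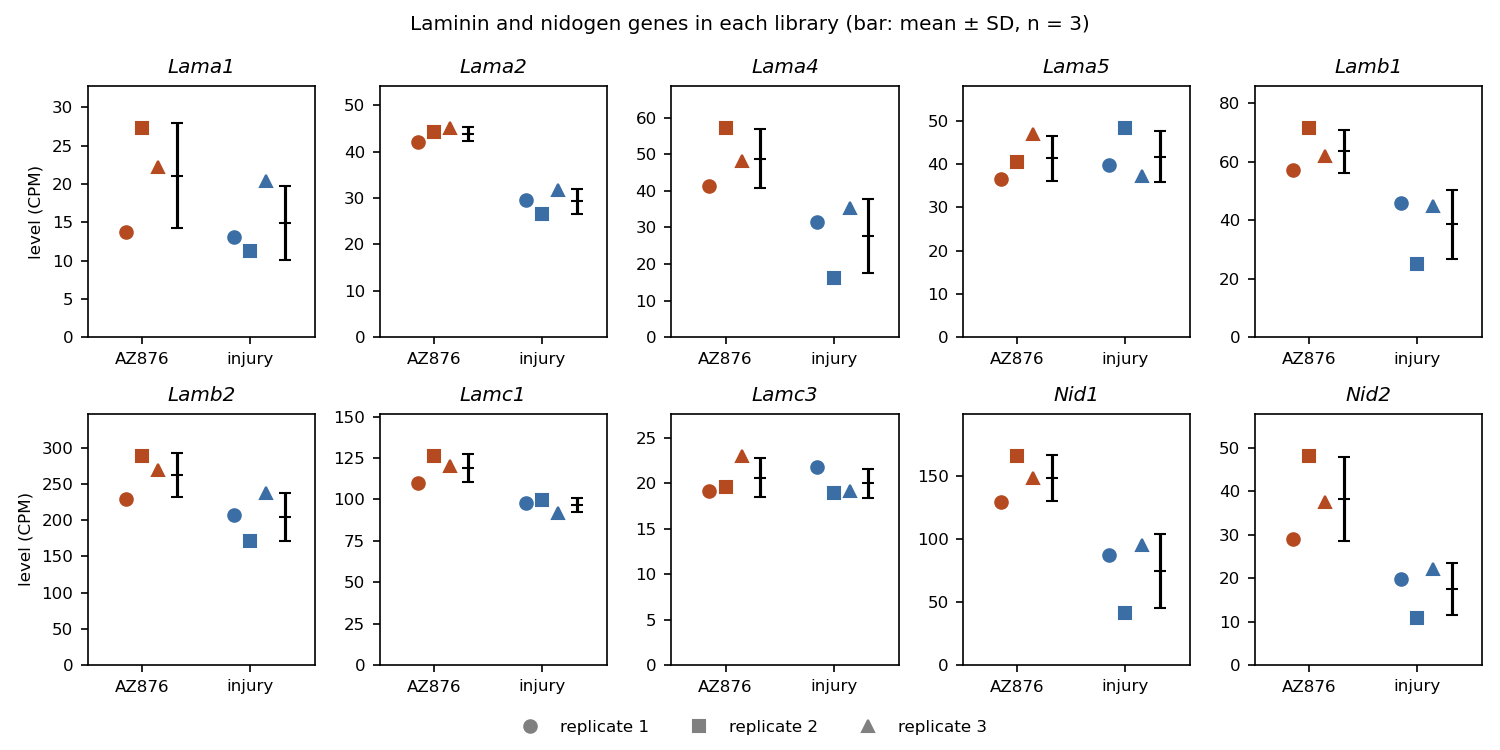
Level of each laminin and nidogen gene in CPM (linear axis from 0) in the 3 AZ876 and 3 injury libraries, with the mean ± SD beside the points. The AZ876 points lie above all injury points for Lama2, Lama4, Lamb1, Lamc1, Nid1 and Nid2, and the groups overlap for Lama1, Lama5, Lamb2 and Lamc3.

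**Figure D2:**
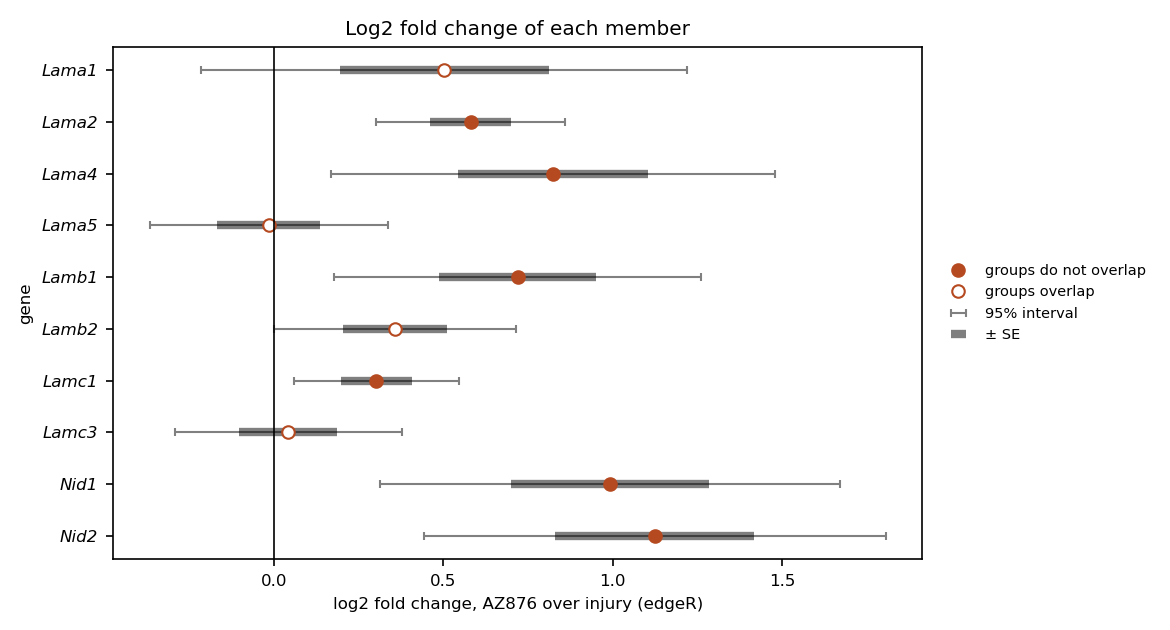
Log2 fold change of AZ876 over injury for each gene from edgeR, with the SE (thick bar) and the 95% interval (thin bar), filled where the groups do not overlap. Nid1 and Nid2 lie near 1, and Lama5 and Lamc3 near 0.

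Promoter sequences were read for the genes found in the RefSeq promoter table (build GRCm38.p6), which matched 5 of the 10: Lama2, Lama5, Lamb1, Lamb2 and Nid1. Each window holds 300 bases around the gene's start, most of them upstream. Those of Lama2 (chr10:27616893-27617192, minus strand), Lamb1 (chr12:31265043-31265342, plus strand) and Nid1 (chr13:13437352-13437651, plus strand) are shown because their genes were higher in every AZ876 library, and that of Lama5 (chr2:180225810-180226109, minus strand) because its gene was not. Sequences run 5′ to 3′ on the gene's strand, and capitals mark GGGCGG, the GC box bound by Sp1 family factors, on either strand.
Lama2: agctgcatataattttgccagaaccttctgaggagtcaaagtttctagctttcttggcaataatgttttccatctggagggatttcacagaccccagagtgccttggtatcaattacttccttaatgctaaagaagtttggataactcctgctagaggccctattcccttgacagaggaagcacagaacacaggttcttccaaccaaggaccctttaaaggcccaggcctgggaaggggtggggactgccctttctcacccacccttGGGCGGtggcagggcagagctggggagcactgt
Lamb1: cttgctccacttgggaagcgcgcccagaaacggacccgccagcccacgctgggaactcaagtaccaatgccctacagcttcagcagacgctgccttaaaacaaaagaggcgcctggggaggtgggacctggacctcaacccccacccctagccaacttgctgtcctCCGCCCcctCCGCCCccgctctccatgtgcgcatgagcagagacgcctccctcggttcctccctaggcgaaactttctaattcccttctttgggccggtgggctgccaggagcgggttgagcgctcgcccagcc
Nid1: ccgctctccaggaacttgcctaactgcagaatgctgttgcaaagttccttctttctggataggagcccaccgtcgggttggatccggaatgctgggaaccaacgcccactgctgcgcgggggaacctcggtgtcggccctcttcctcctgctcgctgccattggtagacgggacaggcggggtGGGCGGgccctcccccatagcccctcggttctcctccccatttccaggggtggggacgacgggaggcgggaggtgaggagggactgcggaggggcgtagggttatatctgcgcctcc
Lama5: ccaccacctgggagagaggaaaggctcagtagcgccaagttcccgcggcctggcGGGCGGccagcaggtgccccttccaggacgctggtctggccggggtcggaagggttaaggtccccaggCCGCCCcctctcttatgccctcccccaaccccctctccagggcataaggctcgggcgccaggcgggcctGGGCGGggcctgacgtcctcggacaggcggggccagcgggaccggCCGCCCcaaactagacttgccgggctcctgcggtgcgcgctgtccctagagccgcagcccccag

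The Lama5 window held 4 GC boxes and was 72.7% G or C, the Lamb1 window held 2 (63.7%), and the Nid1 and Lama2 windows held 1 each (64.7% and 50.3%). The Lamb2 window held 0 and was 44.0% G or C. Of all 32851 promoter windows of the same length, 35.7% held the box. Further motifs were searched on both strands: AGGTCA, the half-site of nuclear receptors, TATAAA, the TATA box, and TGANTCA, the AP-1 site. None of them was in any of the 5 windows, where 16.3%, 13.6% and 7.81% of all windows held them. A repeat of AGGTCA after a gap of 4 bases, the form LXR binds with its partner RXR and a match that AGGTCA alone also counts, was likewise in 0 of the 5 and in 5 of all windows.

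Lama2 encodes the alpha chain of the laminin of muscle and peripheral nerve, whose loss causes a congenital muscular dystrophy in humans and mice. It is listed as ENSMUSG00000019899 at chr10:26856032-27495754 on the minus strand. The build behind these positions is not named in the table. Its level was 42.1, 44.2 and 45.1 CPM in AZ876 replicates 1, 2 and 3, against 29.6, 26.5 and 31.8 CPM in injury replicates 1, 2 and 3. The coefficient of variation among AZ876 libraries was 3.47%, and the lowest of them was above every injury library. For Lama2 the log2 fold change came to 0.58 ± 0.12 (SE), with an edgeR adjusted p of 0.330, and leaving out any 1 library gave 0.51 to 0.64. By unadjusted p Lama2 ranked 41 of 17599 genes.

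Lama4, the alpha chain typical of endothelial basement membranes, is listed as ENSMUSG00000019846 at chr10:38841511-38986184 on the plus strand. It was at 41.2, 57.2 and 48.0 CPM in AZ876 replicates 1, 2 and 3, against 31.4, 16.2 and 35.2 CPM in injury replicates 1, 2 and 3. The groups did not overlap, and injury replicate 2 stood well below the other injury libraries. Its log2 fold change was 0.82 ± 0.28 (SE), with an edgeR adjusted p of 0.330, and was 0.55 without injury replicate 2.

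With all libraries, Lama1 and Lama5 did not separate the groups. Lama1 (ENSMUSG00000032796, chr17:68004254-68129642 on the plus strand), the alpha chain of early embryonic and meningeal basement membranes, was at 13.7, 27.3 and 22.2 CPM in AZ876 replicates 1, 2 and 3, against 13.1, 11.2 and 20.4 CPM in injury replicates 1, 2 and 3. AZ876 replicate 1 lay within the injury range, and injury replicate 3 within the AZ876 range. Its log2 fold change of 0.50 ± 0.31 (SE) had an edgeR adjusted p of 0.428, and it ran from 0.27 to 0.79 when 1 library was left out, lowest without AZ876 replicate 2. Without AZ876 replicate 1 or injury replicate 3 the groups no longer overlapped, which follows from leaving out a library that made them overlap. The log2 fold changes were then 0.73 and 0.79, with edgeR adjusted p-values of 0.148 and 0.207. Lama5 (ENSMUSG00000015647, chr2:179818166-179867652 on the minus strand), the widely expressed alpha chain of epithelial and vascular basement membranes, was at 36.6, 40.4 and 46.9 CPM in AZ876 replicates 1, 2 and 3, against 39.7, 48.4 and 37.1 CPM in injury replicates 1, 2 and 3. Its highest library was injury replicate 2, the library in which most other members were lowest. For Lama5 the log2 fold change came to -0.01 ± 0.15 (SE), with a 95% interval from -0.37 to 0.34 and an edgeR adjusted p of 0.967. A difference of either sign within that interval is not excluded by these data. The Lama5 log2 fold change took the opposite sign without AZ876 replicate 1 (0.06) or injury replicate 2 (0.10).

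Among the beta chains, Lamb1 separated the groups and Lamb2 did not. Lamb1, the beta chain of most embryonic laminins, is listed as ENSMUSG00000002900 at chr12:31315233-31379643 on the plus strand and was at 57.2, 71.5 and 61.9 CPM in AZ876 replicates 1, 2 and 3, against 46.0, 25.0 and 44.8 CPM in injury replicates 1, 2 and 3. Its log2 fold change was 0.72 ± 0.23 (SE), with an edgeR adjusted p of 0.330. Lamb2, first known from the synaptic basement membrane of the neuromuscular junction, is listed as ENSMUSG00000052911 at chr9:108356935-108367729 on the plus strand and had the most counts of the 10, at 229, 289 and 269 CPM in AZ876 replicates 1, 2 and 3, against 207, 171 and 237 CPM in injury replicates 1, 2 and 3. Injury replicate 3 lay above AZ876 replicate 1. Without either of these libraries the groups did not overlap, which follows from leaving out a library that made them overlap. For Lamb2 the log2 fold change came to 0.36 ± 0.15 (SE), with an edgeR adjusted p of 0.339, and its unadjusted p of 0.050 lay at the limit.

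Lamc1, the gamma chain of most laminins and the one that binds nidogen, is listed as ENSMUSG00000026478 at chr1:153094668-153208532 on the minus strand and was at 110.0, 126 and 120.3 CPM in AZ876 replicates 1, 2 and 3, against 97.9, 99.5 and 91.6 CPM in injury replicates 1, 2 and 3. Both groups were narrow and did not overlap, although the difference was small, with a log2 fold change of 0.30 ± 0.11 (SE) and an edgeR adjusted p of 0.330. Lamc3, a gamma chain of restricted expression known from retina and cortex, is listed as ENSMUSG00000026840 at chr2:31777303-31836551 on the plus strand and was at 19.2, 19.6 and 23.1 CPM in AZ876 replicates 1, 2 and 3, against 21.9, 19.0 and 19.2 CPM in injury replicates 1, 2 and 3. The groups overlapped almost fully. Its log2 fold change was 0.04 ± 0.14 (SE), with a 95% interval from -0.29 to 0.38 and an edgeR adjusted p of 0.895.

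Nid1 and Nid2 encode the nidogens, which can stand in for each other in most basement membranes of the mouse. Nid1 (ENSMUSG00000005397, chr13:13612136-13686854 on the plus strand) was at 129, 166 and 148 CPM in AZ876 replicates 1, 2 and 3, against 86.8, 41.0 and 95.3 CPM in injury replicates 1, 2 and 3. Every AZ876 library was above every injury library, and injury replicate 2 was at less than the level of either other injury library. In edgeR the log2 fold change of Nid1 was 0.99 ± 0.29 (SE), with an edgeR adjusted p of 0.330, and 0.70 without injury replicate 2. Nid2 (ENSMUSG00000021806, chr14:19801333-19861855 on the plus strand) was at 29.1, 48.3 and 37.5 CPM in AZ876 replicates 1, 2 and 3, against 19.9, 10.8 and 22.0 CPM in injury replicates 1, 2 and 3, again without overlap. Its log2 fold change was 1.12 ± 0.29 (SE) with an edgeR adjusted p of 0.330, and 0.87 without injury replicate 2. The 3′ end of Nid2 overlaps that of Rtraf on the opposite strand from position 19861419 to 19861855, and as the strand setting of the counting is not given, reads from that stretch cannot be told apart.

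Because longer transcripts give more counts, levels of different genes were compared as CPM per kilobase of coding length. Lamb2 was the highest in both groups, at 42.5 to 53.6 CPM per kilobase in AZ876 libraries and 31.7 to 44.0 in injury libraries. Nid1 came next with AZ876 at 34.6 to 44.4, overlapping Lamb2, and was at 11.0 to 25.5 in injury libraries, where its range took in that of Lamc1. Lamc1 was at 22.8 to 26.2 in AZ876 and 19.0 to 20.6 in injury libraries. Lamb1, Nid2 and Lama4 formed a middle group in AZ876 libraries, at 10.4 to 13.0, 6.91 to 11.5 and 7.56 to 10.5, whose ranges overlapped. That grouping rests on the length used, as by exon length Lama4 was at 3.41 to 4.74 CPM per kilobase in AZ876 libraries, below Nid2 at 5.62 to 9.33 and Lamb1 at 5.77 to 7.21. By coding length, Lama2, Lamc3 and Lama5 lay lower, at 4.50 to 4.82, 4.04 to 4.86 and 3.28 to 4.21, with neighbours again overlapping, and Lama1 was lowest at 1.49 to 2.96. In injury libraries Lamb1, Lama4, Lamc3, Nid2, Lama5 and Lama2 formed a chain of overlapping neighbours, at 4.55 to 8.36, 2.97 to 6.47, 4.00 to 4.61, 2.57 to 5.24, 3.33 to 4.34 and 2.83 to 3.40, and Lama1 was again lowest at 1.22 to 2.21. The beta chains summed to 60.2 ± 6.92 CPM per kilobase in AZ876 libraries, and the alpha chains of the group to 19.6 ± 2.54 (SD, n = 3). In injury libraries they summed to 45.0 ± 8.04 and 13.6 ± 2.05 (SD, n = 3).

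**Figure D3:**
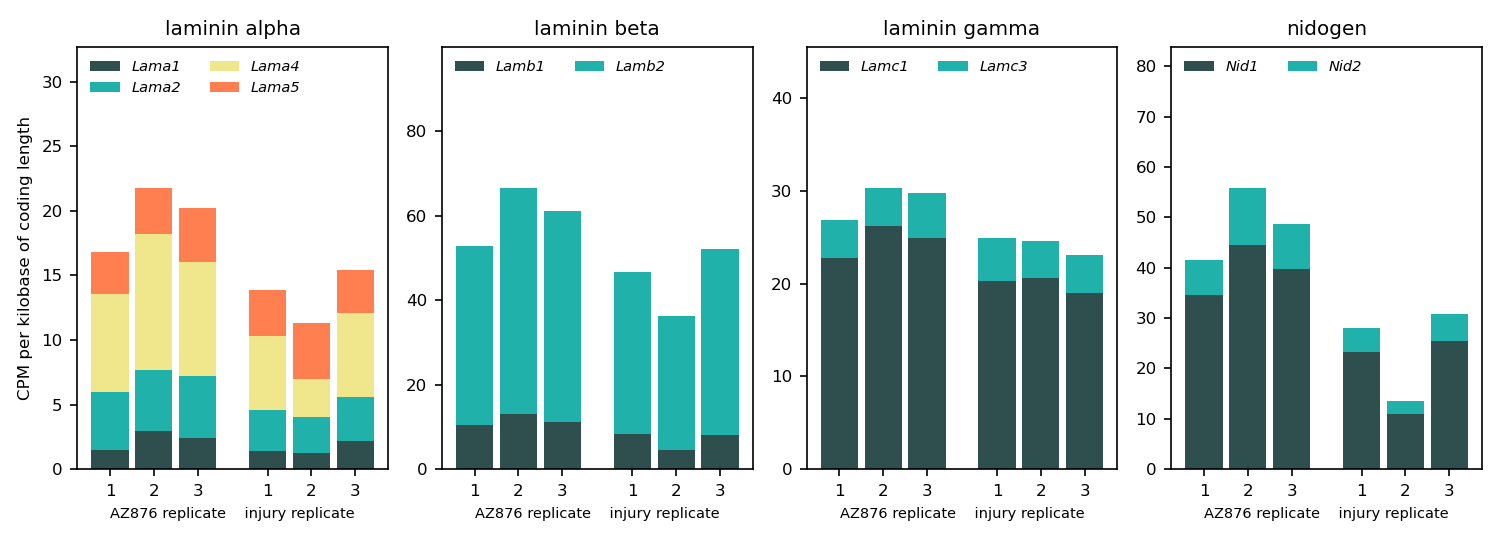
Level per kilobase of coding length (CPM per kilobase, stacked bars from 0) of the alpha, beta and gamma chains and the nidogens in each library, AZ876 replicates left and injury replicates right. Nidogen bars are lowest in injury replicate 2, and Lama5 takes a smaller part of the alpha bar in AZ876 than in injury libraries.

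Ratios between chains within a library do not depend on how libraries are scaled, and 6 such ratios of counts were compared. Lama2 and Lama4 were higher relative to Lama5 in every AZ876 library. The ratio of Lama4 to Lama5 was 1.02 to 1.42 in AZ876 libraries and 0.334 to 0.949 in injury libraries, and that of Lama2 to Lama5 was 0.961 to 1.15 in AZ876 libraries and 0.547 to 0.856 in injury libraries, without overlap in either case. The mean log2 difference was 0.90 and 0.60, and two-sided exact permutation tests gave p = 0.1 for each, the smallest that 3 against 3 libraries allow, or 0.20 adjusted over the 6 ratios. Without injury replicate 2 the log2 difference of Lama4 to Lama5 was 0.44 and that of Lama2 to Lama5 was 0.41. Lamb1 to Lamb2 was 0.23 to 0.249 in AZ876 libraries and 0.146 to 0.222 in injury libraries, a log2 difference of 0.40 with the same exact p-values, and of 0.24 without injury replicate 2. By coding length, Lamb2 thus made up 80.8% ± 0.682 of beta chain RNA with AZ876 and 84.6% ± 2.69 with injury (SD, n = 3 each). Lama5 made up 19.0% ± 2.13 and Lama4 45.5% ± 2.37 of the alpha chains of the group with AZ876, against 28.5% ± 8.66 and 36.5% ± 8.98 with injury (SD, n = 3 each). Which of the pair was the larger by injury group means depended on the length used, as Lama5 exceeded Lama4 there by exon length. In injury replicate 2, Lama5 was the larger by coding length too, at 38.2% against 26.2% for Lama4.

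The ratios of Lama1 to Lama5, Lamc1 to Lamc3 and Nid1 to Nid2 overlapped between the groups. Lamc1 to Lamc3 was 5.21 to 6.45 in AZ876 libraries and 4.48 to 5.25 in injury libraries (log2 difference 0.26, exact permutation p = 0.2). Nid1 to Nid2 was 3.44 to 4.45 in AZ876 libraries and 3.79 to 4.37 in injury libraries (log2 difference -0.08, exact permutation p = 0.7). This difference ran from -0.17 to 0.02 when 1 library was left out. Lama1 to Lama5 was 0.376 to 0.677 in AZ876 libraries and 0.232 to 0.550 in injury libraries (log2 difference 0.50, exact permutation p = 0.4), and the difference ran from 0.21 without injury replicate 2 to 0.83 without injury replicate 3.

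Lama3 and Lamb3, chains of the laminin of skin that lie outside the group, had few counts. Lama3 averaged 4.55 ± 0.524 CPM in AZ876 libraries and 3.07 ± 0.744 CPM in injury libraries (SD, n = 3 each). Lamb3 averaged 1.94 ± 0.10 CPM in AZ876 libraries and 2.65 ± 0.709 CPM in injury libraries (SD, n = 3 each) and was lower in every AZ876 library. Their log2 fold changes were 0.57 ± 0.26 (SE) for Lama3 and -0.45 ± 0.29 (SE) for Lamb3, and neither passed the edgeR test after adjustment.

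Receptors for laminin leaned the same way as most chains. Of 9 receptor genes tested, 7 had a positive log2 fold change (median 0.52). The integrin alpha chain genes Itga3 and Itga7 had negative ones, of -0.28 and -0.04. At an unadjusted p under 0.05 in edgeR 6 were higher and 0 lower, against 7.98% and 6.74% of all genes. After adjustment 0 passed. Itgb1, the beta1 integrin chain shared by most laminin-binding integrins, was at 251, 288 and 313 CPM in AZ876 replicates 1, 2 and 3, against 156, 168 and 225 CPM in injury replicates 1, 2 and 3. The groups did not overlap, and the log2 fold change came to 0.64 ± 0.17 (SE), at an edgeR adjusted p of 0.330. Dag1, which encodes dystroglycan, the sugar-bearing receptor of Lama2 and Lama1 laminins, was at 231 ± 12.2 CPM in AZ876 libraries and 161 ± 35.6 CPM in injury libraries (SD, n = 3 each), also without overlap. Itga6, the alpha partner in laminin integrins, averaged 117 ± 14.5 CPM in AZ876 libraries and 82.2 ± 23.5 CPM in injury libraries, and Itgb4, its partner in epithelia and Schwann cells, 108 ± 12.2 CPM in AZ876 libraries and 92.7 ± 27.8 CPM in injury libraries (SD, n = 3 each). The groups overlapped for both.

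Of 12 genes of the dystroglycan complex, 9 had a positive log2 fold change (median 0.13). At an unadjusted p under 0.05 in edgeR 2 were higher (Dag1 and Sgce, the epsilon-sarcoglycan gene) and 1 was lower. Of all genes, 7.98% were higher and 6.74% lower at that p. Dtnb, the dystrobrevin found mainly in neurons, was the lower one, at 24.4 ± 1.88 CPM in AZ876 libraries and 35.6 ± 9.17 CPM in injury libraries (SD, n = 3 each).

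Other basement membrane proteins leaned the same way: 16 of 19 had a positive log2 fold change (median 0.35). At an unadjusted p under 0.05 in edgeR 3 were higher and 0 lower, against 7.98% and 6.74% of all genes. After adjustment 0 passed. Col18a1, whose product carries endostatin, averaged 112 ± 17.9 CPM in AZ876 libraries and 58.0 ± 22.3 CPM in injury libraries, and Hspg2, which encodes perlecan, 209.5 ± 13.5 CPM in AZ876 libraries and 127 ± 49.3 CPM in injury libraries (SD, n = 3 each), both without overlap. Col4a1, the main collagen IV chain that nidogen links to laminin, averaged 134 ± 18.9 CPM in AZ876 libraries and 109.9 ± 9.59 CPM in injury libraries (SD, n = 3 each), with overlap. Agrn, which encodes agrin, was lower on average, at 168 ± 5.30 CPM in AZ876 libraries and 198 ± 38.7 CPM in injury libraries (SD, n = 3 each), again with overlap. Col4a5, a collagen IV chain of some specialised basement membranes, had a log2 fold change of 0.57 ± 0.20 (SE), with overlap.

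**Figure D4:**
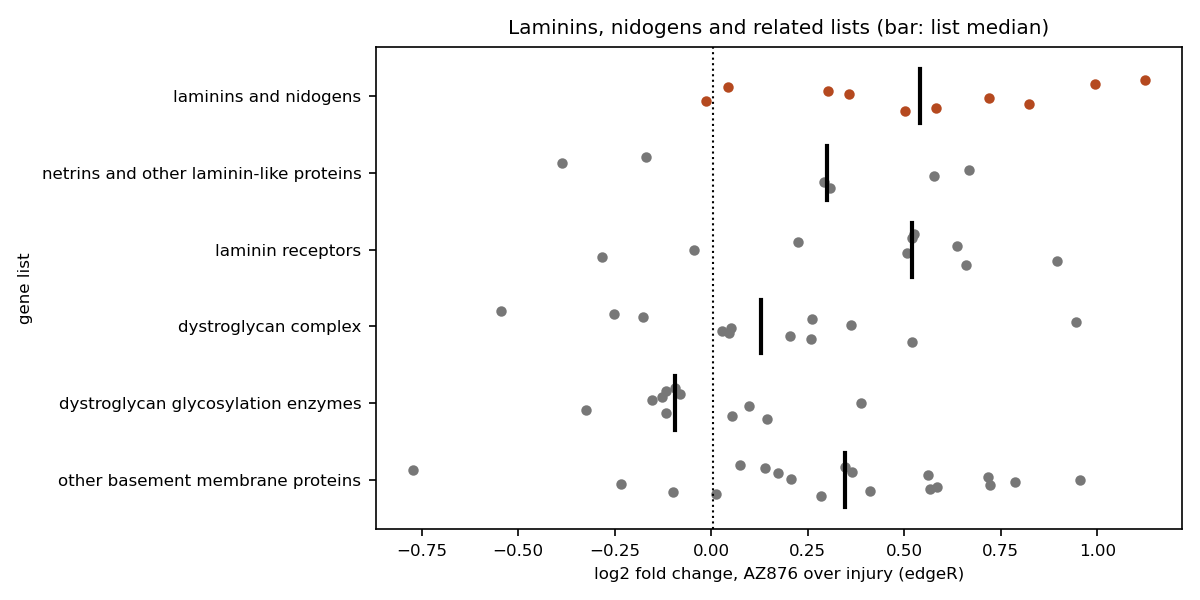
Log2 fold change of AZ876 over injury (edgeR) of each tested gene in the laminin and nidogen group and in 5 related lists, with the list median as a bar and the median of all genes as a dotted line. The median is 0.54 for laminins and nidogens, 0.52 for laminin receptors and -0.10 for dystroglycan glycosylation enzymes.

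Summed markers of fibroblasts and meninges and of Schwann cells, which make basement membrane, also separated the groups. The 12 fibroblast and meninges markers summed to 2735 to 3861 CPM in AZ876 libraries and 941 to 2330 CPM in injury libraries, and all 12 had a positive log2 fold change. The 10 Schwann cell markers summed to 3002 to 3442 CPM with AZ876 and 1268 to 2506 CPM with injury, and all 9 that were tested had a positive one. Neither sum overlapped between the groups, and both were lowest in injury replicate 2, the library in which Nid1, Nid2, Lama4 and Lamb1 were lowest. Among AZ876 libraries, replicate 1 was lowest for all 10 members and for the fibroblast and meninges sum. The Schwann cell sum was lowest in AZ876 replicate 3.

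Sums of vascular and astrocyte markers overlapped between the groups. The 10 endothelial markers summed to 492 to 586 CPM with AZ876 and 419.9 to 513 CPM with injury, with 9 of 10 positive. The 10 pericyte and smooth muscle markers summed to 439 to 499 CPM with AZ876 and 356 to 469 CPM with injury, with 6 of 9 tested positive. The 8 astrocyte markers summed to 12392 to 18313 CPM with AZ876 and 13074 to 17151 CPM with injury, with 4 of 8 positive. The 10 neuron markers ran the other way, at 1750 to 3967 CPM with AZ876 against 4484 to 5682 CPM with injury, as did the 8 oligodendrocyte markers at 20552 to 25517 CPM with AZ876 against 26405 to 28728 CPM with injury. The 8 microglia and macrophage markers summed to 965 to 1695 CPM with AZ876 and 855 to 1185 CPM with injury, with overlap, and all 8 had a positive log2 fold change (median 0.60). No marker of these 8 lists was at 0 in all libraries.

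Set against these sums within each library, the members leaned in a direction that depended on the list. Relative to the fibroblast and meninges sum, only Nid1 and Nid2 had a positive mean log2 difference, of 0.07 and 0.15, and both overlapped between the groups. The other 8 ranged from -1.02 for Lama5 to -0.12 for Lama4, and Lama4, Lama5, Lamb2 and Lamc3 were lower without overlap. For Lama4 the gap was very narrow, with log2 ratios of at most -6.054 in AZ876 libraries and at least -6.047 in injury libraries. The fibroblast and meninges sum was itself 1.89 times as high with AZ876 by group means. A gene at equal CPM in both groups, as Lama5 and Lamc3 nearly were, therefore comes out lower against it. Relative to the Schwann cell sum 4 of 10 were positive, with a median of -0.19. Lama5 and Lamc3 were lower without overlap, by log2 differences of -0.74 and -0.69. For Lama5 this gap was narrow, with log2 ratios of at most -6.00 in AZ876 libraries and at least -5.98 in injury libraries. The Schwann cell sum was 1.59 times as high with AZ876, so the same limit holds there. Relative to the endothelial sum 8 of 10 were positive, and Lama2, Lama4, Nid1 and Nid2 were higher without overlap, by 0.37, 0.68, 0.87 and 0.95. Relative to the pericyte and smooth muscle sum 8 of 10 were also positive, and Lama2, Lama4, Nid1 and Nid2 were higher without overlap, by 0.43, 0.73, 0.92 and 1.00. The endothelial sum was 1.16 times and the pericyte and smooth muscle sum 1.10 times as high with AZ876 by group means. Lama2, Lama4, Nid1 and Nid2 did not overlap in CPM either, so ratios to such nearly equal sums add little to their levels. All ratios to marker sums were computed for the 10 members only, so no share over all genes stands beside these counts. The part of cell composition in the levels of laminins and nidogens was not tested.

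**Figure D5:**
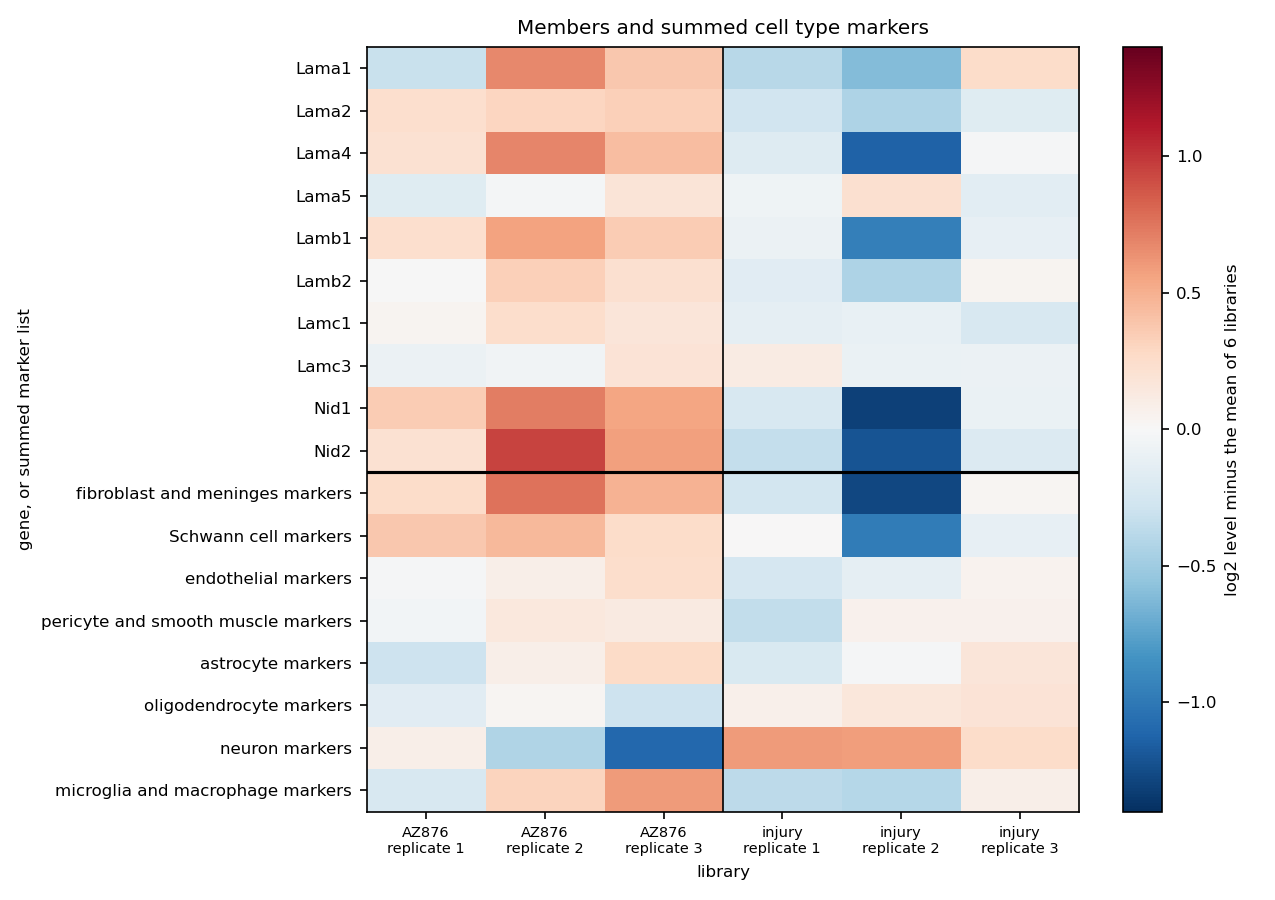
Log2 level of each gene (top) and of each summed marker list (bottom) in the 6 libraries, minus its mean over them. Injury replicate 2 is low for Nid1, Nid2, Lama4, Lamb1 and the fibroblast and Schwann cell sums, and the neuron sum is lowest in AZ876 replicate 3.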

How the data were processed

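Read counts per gene were deposited by the authors as 1 table for 6 libraries, whole numbers with no normalisation. Per the submitters' processing notes, reads were handled with HISAT2 2.1.0 and fastp 0.23.0; the counting program, strand setting, build and annotation were not given in the sources used here. Table columns were matched to samples by library name, and samples to groups by title. Symbols on more than 1 row (148, with identical counts on each) were kept once, leaving 56859 genes, of which 17599 passed edgeR's filterByExpr. CPM were computed by edgeR from counts and TMM-scaled library sizes. AZ876 was compared with injury by edgeR 4.0.16's robust quasi-likelihood test (R 4.3.3) with no covariates. Benjamini-Hochberg adjustment was over all genes, and the procedure was tested on simulated data beforehand. Standard errors are the absolute log2 fold change over the root of F. Pairs of libraries differed by 13.1 or more in chi-square per degree of freedom, so none was a copy. The smallest value was between groups, for AZ876 replicate 1 with injury replicate 3. AZ876 replicate 1 gave 27.6 and 61.5 with AZ876 replicates 2 and 3. The labels do not say that replicates were separate animals, so the p-values reflect only sample-to-sample spread, which may be technical.

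Coding length is the longest coding sequence of the gene in GENCODE M21, matched by identifier, since no RefSeq protein lengths were used as planned. Starts of 2.80% of genes matched M21 (GRCm38), so positions are the table's own, in a build it does not name. The smallest count of a member in a library was 201, a counting error of 7.05%. Alternatives were DESeq2 1.42.0, limma-voom 3.58.1, other scalings, no filter, a replicate block, leaving out each library, exon length and 2 counts added to ratios. Members and lists were chosen with earlier results of these data known. All members were named, with the 2 genes of smallest p in each related list and Col4a1, Hspg2, Agrn, Dag1, Itga6, Itgb1 and Itgb4 in all cases. One result that this rule would name is not reported here. Lamb3, Sgce, Itga3 and Itga7 were named after their values were seen.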

Additional observations from a re-analysis of the deposited data

How the results depend on the processing

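The sign of the log2 fold change was kept by 8 of the 10 genes under every alternative run. It turned for Lama5 without AZ876 replicate 1 (0.06) or injury replicate 2 (0.10) and for Lamc3 without AZ876 replicate 3 (-0.04), and the Nid1 to Nid2 log2 difference turned without AZ876 replicate 2. Leaving out 1 library gave -0.115 to 0.104 for Lama5, -0.0444 to 0.112 for Lamc3 and -0.170 to 0.0159 for Nid1 to Nid2. Over all genes, 178 were called by DESeq2, 6 with no low-count filter and 2 with the replicate block, against 0. Of the members, DESeq2 called 2, and the other tests and scalings called 0. Leaving out 1 library gave 0 to 363 calls over all genes (363 without AZ876 replicate 1) and 0 called members. It gave 3 to 8 members higher at an unadjusted p under 0.05 in edgeR. Genes of the whole table at that p in either direction then numbered 986 to 4634, against 2592. Members without overlap numbered 6 to 8. The share of all genes without overlap was not computed with a library left out, when fewer libraries need to separate. Adjusted p-values over the alternatives ran from 0.0160 to 0.745 for Lama2 and from 0.0402 to 0.745 for Nid2, lowest in DESeq2.

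The replicate block, with same-numbered libraries paired, called 2 genes in all and 0 members. At an unadjusted p under 0.05 in edgeR it gave 3973 genes in either direction, against 2592 without it, and 7 members higher. Deviations of same-numbered libraries from their group means correlated at 0.39, -0.14 and 0.32 across genes for numbers 1, 2 and 3. Those of differently numbered libraries correlated at -0.49 to 0.34. These values do not settle whether the numbers pair the samples. The labels do not say so either, and the block was kept as an alternative. By exon length, an alternative chosen after seeing the data, shares within a chain class in AZ876 and injury libraries became 17.1% and 16.4% for Lama1, 32.2% and 24.2% for Lama4, 29.1% and 40.1% for Lama5, 12.9% and 10.2% for Lamb1, 80.9% and 78.0% for Lamc1, 74.5% and 75.6% for Nid1, and 19.3% for Lama2 in injury libraries. The length used causes these shifts, as the counts are the same.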

Other observations

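Netrins share the laminin short-arm domains, and netrin-4 is known to bind laminin short arms and to loosen the network. Of 6 such genes tested, 4 had a positive log2 fold change (median 0.30). At an unadjusted p under 0.05 in edgeR 2 were higher and 0 lower, against 7.98% and 6.74% of all genes. After adjustment 0 passed. Ntn4, the netrin-4 gene, averaged 9.13 ± 1.03 CPM in AZ876 libraries and 6.14 ± 1.63 CPM in injury libraries, and Ntn1, the axon guidance netrin, 47.7 ± 0.586 CPM in AZ876 libraries and 38.6 ± 4.46 CPM in injury libraries (SD, n = 3 each). Neither overlapped between the groups.

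The enzymes that build the laminin-binding sugar of dystroglycan did not lean the way of the laminin chains in their counts. Of 11 tested, 4 had a positive and 7 a negative log2 fold change (median -0.10). At an unadjusted p under 0.05 in edgeR 1 was higher, against 7.98% of all genes. That one, B3galnt2, averaged 17.0 ± 0.940 CPM in AZ876 libraries and 13.0 ± 1.68 CPM in injury libraries, and Pomgnt2 26.6 ± 5.63 CPM in AZ876 libraries and 33.3 ± 5.99 CPM in injury libraries (SD, n = 3 each).

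Skeletal muscle, ganglion and ependymal marker sums overlapped between the groups. The 8 skeletal muscle markers, a tissue rich in Lama2, summed to 14.2 to 43.7 CPM in AZ876 libraries and 8.0 to 23.5 CPM in injury libraries. The 6 markers of dorsal root ganglion neurons summed to 5.07 to 6.63 CPM with AZ876 and 4.55 to 9.59 CPM with injury, with Mrgprd at 0 in all libraries. The 6 ependymal markers summed to 76.0 to 111 CPM with AZ876 and 63.6 to 104 CPM with injury.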
